A study of Caenorhabditis elegans with 15 samples.

Results

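The comparison described here sets the mRNA of Caenorhabditis elegans carrying the puf-8 allele ust223 against that of N2, the common laboratory wild type. It takes the 3 ust223 libraries and the 3 N2 libraries of a study of 15, as their labels name them, and covers all 17217 genes with enough reads to test of 47111 in the count table. The other 9 libraries, 3 each of the puf-8 alleles ust221, ust222 and ok302, entered the same model so that all genotypes share 1 estimate of the spread. All animals were grown from synchronised first-stage larvae on Escherichia coli OP50 at 20 °C and collected as young adults. The labels name no other allele or treatment in either group. They do not say what the ust223 change does to the protein. Nor do they say that replicates were grown as separate cultures, so the spread behind every p-value is that between these libraries and could be technical. Poly-A RNA of whole animals was sequenced.

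PUF-8 belongs to the Pumilio/FBF (PUF) family of RNA-binding proteins, which bind short sequences in the 3′ untranslated regions of mRNAs and mostly lower their translation or stability. In the hermaphrodite germline PUF-8 is known for limiting germ cell proliferation and for roles in the switch from sperm to oocytes and in meiosis. The intestine is the main site of fat storage, digestion, yolk synthesis and pathogen defence in this animal. Yolk proteins made there are taken up by oocytes.

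In the 6 libraries the total count ran from 20969800 to 29352254 reads. N2 replicate 1 stood apart from the other N2 libraries, with a correlation of log2 CPM (counts divided by library size, on the usual per-1e6 scale) across genes of 0.83 and 0.827 with them, where they had 0.972 with each other. Its 31 genes of the major sperm protein family summed to 4.50 CPM, against 1276 and 1974 in N2 replicates 2 and 3 and 954, 1120 and 490.1 in the ust223 libraries. The 36 molting and larval cuticle genes summed to 3875 CPM there, against 309 and 409 in the other N2 libraries and 1314, 1098 and 717 in ust223. The ust223 libraries lay between N2 replicate 1 and the other N2 libraries in molting genes. Results are given with all libraries, and for gene lists the counts without N2 replicate 1 follow where they differ. What part larval stage or sperm content plays in the differences was not tested.

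The puf-8 mRNA itself was read first. It stood at 115, 125 and 166 CPM in the ust223 libraries and at 79.9, 139 and 123 CPM in the N2 libraries, and the groups overlapped. The log2 fold change was 0.25 ± 0.28 (standard error; edgeR quasi-likelihood test with Benjamini-Hochberg adjustment over all genes, adjusted p = 0.943). Its mean in ok302 was 0.272 CPM. The labels of ust223 could thus not be checked by the level of this gene.

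Of 17217 genes, 233 passed an adjusted p of 0.05, which is 1.35% of those tested. Higher in ust223 were 194 genes (1.13%) and lower were 39 (0.227%). Among the genes that rose, 84 were at least 4-fold and 42 at least 8-fold higher. Among those that fell, 13 were at least 4-fold and 6 at least 8-fold lower. All 233 had ust223 and N2 libraries that did not overlap, a condition met by 8.68% of all tested genes in the upward and 5.20% in the downward direction. The median log2 fold change of all tested genes was -0.08. In such whole-animal RNA, more cells of a type and more RNA per cell cannot be told apart. Without N2 replicate 1, 537 of 17599 genes passed (3.05%), 402 higher (2.28%) and 135 lower (0.767%). Of the 233, 218 were among them, and none was called in the opposite direction. Without also ust222 replicates 1 and 3, which an earlier analysis found low in sperm transcripts like N2 replicate 1 (the 12-library fit), 2048 of 18343 genes passed (11.2%), 1439 higher (7.84%) and 609 lower (3.32%). Whichever 1 of the 6 libraries was left out, 69 higher and 5 lower genes passed. The list counts below are to be read against the shares of all genes. For rises these were 1.13% with all libraries and 2.28% without N2 replicate 1, and for falls 0.227% and 0.767%.

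**Figure D1:**
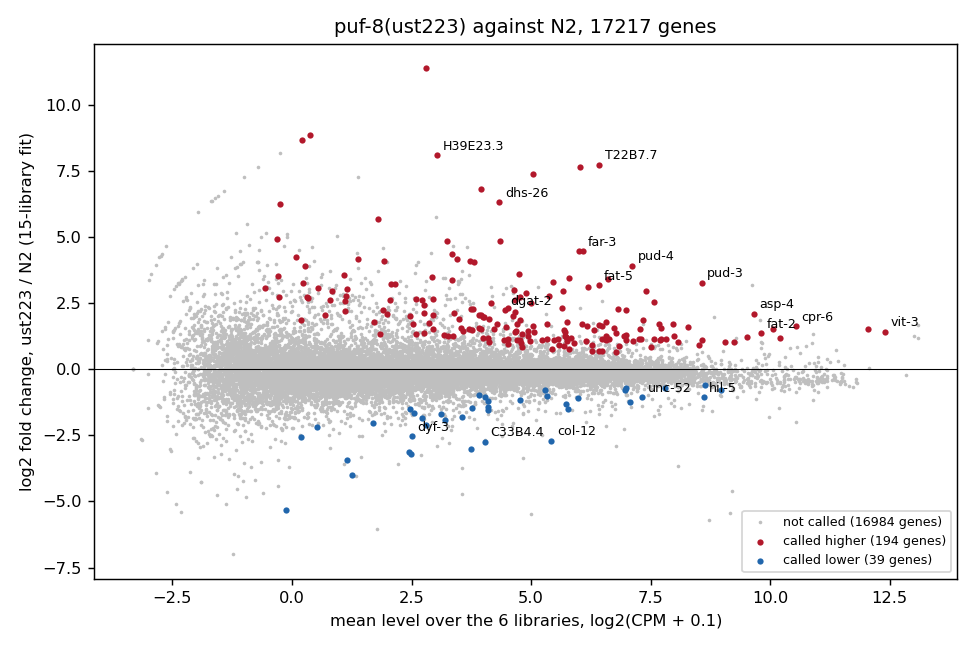
Each point is a gene of the 15-library fit, placed by its mean level over the 6 libraries, log2(CPM + 0.1), and its fitted log2 fold change, ust223 over N2. The 194 genes called higher (red) outnumber the 39 called lower (blue), and reach from near-silent genes such as dhs-26 to the abundant yolk protein gene vit-3.

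The largest rises belonged to genes that were nearly silent in N2. T22B7.7, a gene on the X chromosome with no described domain in the table, was at 169.9, 170.2 and 174 CPM in ust223 and at 0.313, 0.930 and 1.19 CPM in N2. The 3 ust223 libraries differed little from each other, and the log2 fold change was 7.74 ± 0.48 (edgeR, adjusted p = 5.7e-06). The short-chain dehydrogenase gene dhs-26 was at 44.7, 37.1 and 37.8 CPM against 0.235, 0.751 and 0.487 CPM, a log2 fold change of 6.32 ± 0.74 (adjusted p = 0.00117). icmt-1, which encodes an isoprenylcysteine carboxyl methyltransferase, was at 31.6, 41.5 and 44.6 CPM against 0.235, 1.93 and 1.89 CPM (4.86 ± 0.66, adjusted p = 0.00258). These genes passed the test whichever library was left out. Means in the other alleles, which share the N2 libraries, were 75.9, 27.8 and 68.5 CPM for T22B7.7 in ust221, ust222 and ok302, 10.9, 3.77 and 6.45 CPM for dhs-26, and 7.28, 2.55 and 25.2 CPM for icmt-1.

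Another set of near-silent genes rose unevenly among the ust223 libraries. C38D9.2 was at 189, 181 and 16.7 CPM in ust223 replicates 1, 2 and 3 and at 1.21, 0.501 and 0.108 CPM in N2 (7.67 ± 0.89, adjusted p = 0.00117). F15D4.5 was at 91.5, 99.3 and 4.12 CPM against 0.626, 0.107 and 0.433 CPM (7.39 ± 1.05, adjusted p = 0.00301). Replicate 3 was the low ust223 library in both, and also in their neighbours. C38D9.13 was at 8.49, 10.3 and 1.13 CPM in ust223 and F15D4.6 at 23.5, 29.3 and 1.89 CPM. All 4 genes had every ust223 library above every N2 library, but the rule that chose them required this, so it adds no support. With only the 6 libraries in the model, C38D9.2 had an adjusted p of 0.0937 and F15D4.5 of 0.128.

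A run of 4 genes on chromosome V rose together. D1086.3, D1086.1, D1086.9 and H39E23.3 lie on the plus strand between 14092792 and 14110151, in the coordinates of the deposited table, which names no build. D1086.3 was at 183, 197 and 159 CPM against 4.70, 20.9 and 24.8 CPM (3.42 ± 0.48, adjusted p = 0.00301). D1086.1 was at 17.2, 19.2 and 16.2 CPM against 3.91, 5.15 and 4.92 CPM (1.91 ± 0.31, adjusted p = 0.0081). H39E23.3 was at 11.4, 15.4 and 21.6 CPM against 0.0391, 0.107 and 0 CPM (8.10 ± 1.20, adjusted p = 0.00431), and D1086.9 was at 1.31, 1.13 and 1.93 CPM against 0.0391, 0 and 0 CPM (adjusted p = 0.0488). D1086.9 was the weakest of these, and it did not pass without N2 replicate 1 (adjusted p = 0.0512). The table gives D1086.3 and D1086.1 a DUF19 domain, and 5 of 53 tested genes with that domain rose (9.43%). The 3 D1086 genes were singled out after their values were seen. In all, 25 of the 233 genes lay within 5000 bases of another gene called in the same direction, in 15 pairs, and 1 of these pairs, pud-3 and pud-4, overlapped.

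scl-20 and F56D6.9 rose from 0 or nearly 0 reads. scl-20, of the cysteine-rich secretory protein family, was at 11.2, 12.7 and 17.5 CPM in ust223 and had 0 reads in every N2 library. Against a floor of 3 counts over the N2 group it was at least 331-fold higher (adjusted p = 0.021). It passed in 1 of the 6 fits that leave out a library, the one without N2 replicate 1. F56D6.9 was at 32.5, 20.8 and 38.8 CPM against 0.783, 0 and 0 CPM (6.80 ± 1.48, adjusted p = 0.0389), and likewise passed only without N2 replicate 1.

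**Figure D2:**
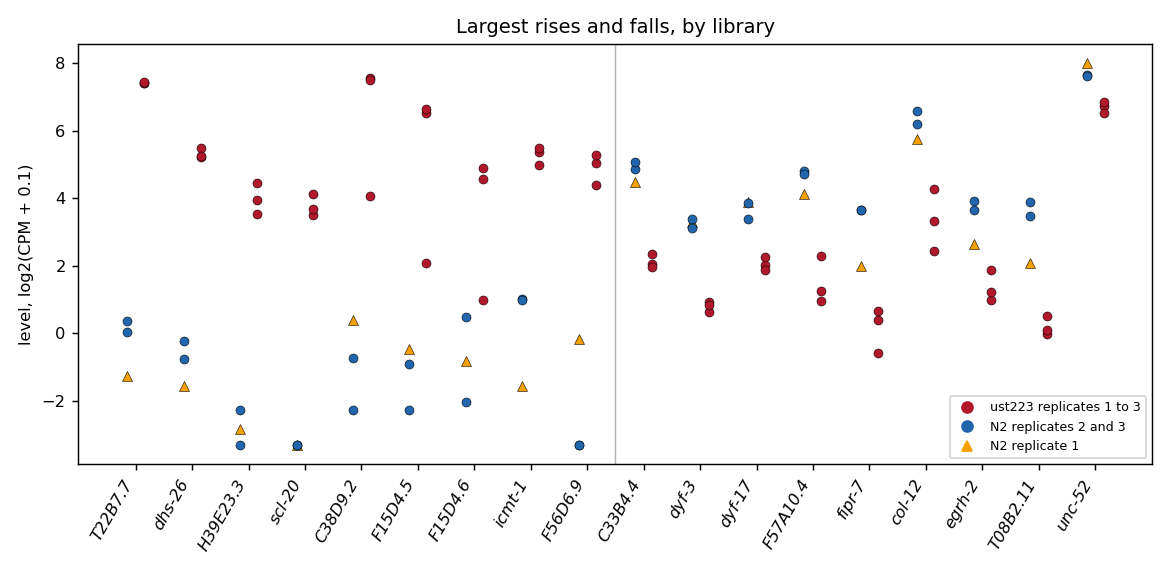
Level of each gene in each library, log2(CPM + 0.1), for the genes with the largest rises (left of the line) and for genes that fell (right). In C38D9.2, F15D4.5 and F15D4.6 a single ust223 library lies well below the others. In the falling genes every ust223 library lies below every N2 library, as in all genes called lower.

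Several fatty acid desaturase genes rose. Of 22 tested genes of fatty acid synthesis, desaturation and elongation, 5 rose (22.7%, against 1.13% of all genes) and none fell, and all 5 were desaturases; the median of the list was 0.04. The fit without N2 replicate 1 added fat-3. fat-5, a palmitoyl-CoA desaturase, was at 180.5, 168 and 112 CPM in ust223 and at 9.43, 17.8 and 23.8 CPM in N2, the largest change of the list (3.17 ± 0.44, adjusted p = 0.00296). fat-2, which makes linoleic acid from oleic acid, was at 1209, 1424 and 1280 CPM against 507, 507 and 495 CPM (1.37 ± 0.19, adjusted p = 0.00301). The N2 libraries, N2 replicate 1 included, hardly differed in fat-2. fat-6, a stearoyl-CoA desaturase, rose by 1.02 ± 0.19 (adjusted p = 0.0199), fat-1, a polyunsaturated fatty acid desaturase, by 1.02 ± 0.20 (0.0209) and fat-4 by 0.91 ± 0.19 (0.0284). fat-3 was at 184, 236 and 274 CPM against 166, 84.1 and 73.5 CPM, with an adjusted p of 0.0528, and rose without N2 replicate 1 (1.64 ± 0.17, adjusted p = 0.000454). fat-7, a close paralogue of fat-6 with which the counting could share reads, was at 25.4, 45.8 and 10.9 CPM against 12.9, 33.2 and 35.1 CPM, and these overlapped.

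Some genes of fat storage and breakdown rose. Of 19 tested, 5 rose (26.3%), none fell, and the median was 0.45. Without N2 replicate 1, 7 rose and the median was 0.88. dgat-2, a diacylglycerol acyltransferase that makes triglycerides, was at 36.5, 37.7 and 33.7 CPM against 7.59, 7.58 and 7.58 CPM (2.25 ± 0.22, adjusted p = 0.000256). Both groups were tight, and no library decided the call. lipl-5, a lysosomal-type lipase, was at 1432, 1921 and 1414 CPM against 495, 488 and 651 CPM (1.54 ± 0.23, adjusted p = 0.00483). The lipases lipl-1 (2.34 ± 0.40, adjusted p = 0.011) and lipl-2 (1.61 ± 0.29, adjusted p = 0.0139) and the acyl-CoA synthetase acs-22 (0.99 ± 0.19, adjusted p = 0.0185) rose as well. lipl-3 was at 7.37, 7.38 and 9.31 CPM in ust223 and at 13.5, 0.608 and 0.595 CPM in N2, so that its rise rested on which N2 libraries were used (0.70 ± 0.87, adjusted p = 0.955 with all, 3.81 ± 0.49, adjusted p = 0.00169 without N2 replicate 1).

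Lipid carriers and peroxisomal enzymes had further members that rose. far-3, which encodes a fatty acid and retinol binding protein, was at 112, 142 and 133 CPM against 3.17, 7.51 and 6.76 CPM (4.47 ± 0.39, adjusted p = 9.5e-05). It overlaps far-5 on the opposite strand, which averaged 3.77 CPM over the 6 libraries. far-8 rose by 0.70 ± 0.15 (adjusted p = 0.0336), which made 2 of 19 lipid binding and transport genes. Of 18 genes of peroxisomal beta-oxidation, a pathway that also shortens ascaroside pheromones, 3 rose (16.7%; median 0.34). These were the acyl-CoA oxidases acox-1.2 (2.50 ± 0.46, adjusted p = 0.0165) and acox-3 (1.12 ± 0.20, adjusted p = 0.0147) and the peroxisomal transporter pmp-4 (1.27 ± 0.25, adjusted p = 0.0213). None of 23 genes of mitochondrial beta-oxidation (median 0.25) and none of 14 regulators of fat metabolism (median -0.12) was called with all libraries. Of the 23, 2 passed without N2 replicate 1, in opposite directions: cpt-6, with a carnitine acyltransferase domain, rose by 1.32 ± 0.31 (adjusted p = 0.042), and acdh-9, with an acyl-CoA dehydrogenase domain, had -1.20 ± 0.27 (0.0323). Among the regulators, sbp-1, the SREBP orthologue, was at 36.8, 44.0 and 28.0 CPM against 27.4, 24.4 and 28.7 CPM (adjusted p = 0.534).

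**Figure D3:**
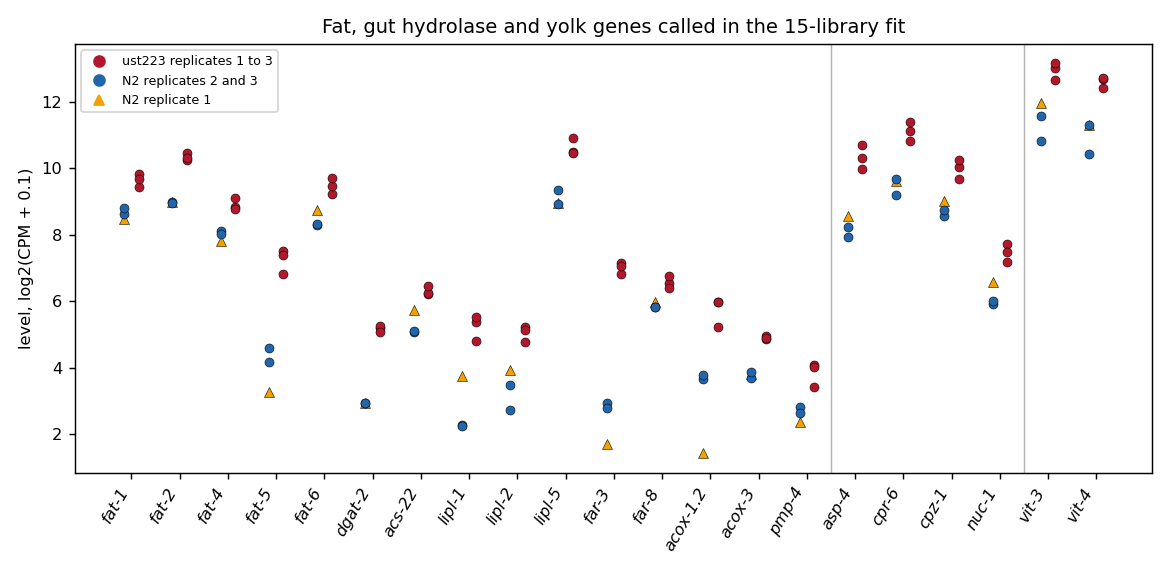
Level of each gene in each library, log2(CPM + 0.1), for lipid genes (left), gut hydrolases (middle) and the yolk protein genes vit-3 and vit-4 (right) that passed the test. Red points (ust223) lie above all N2 points in every gene shown, as in all genes called higher. N2 replicate 1 (triangles) is the highest N2 library in some genes, such as lipl-1, and the lowest in others, such as fat-5.

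Hydrolases of the gut lumen and lysosome rose in part. Of 26 tested, 4 rose (15.4%), none fell, and the median was 0.37; without N2 replicate 1, 6 rose and none fell. asp-4, a cathepsin D-like aspartyl protease, was at 1267, 1681 and 1017 CPM against 377, 243 and 302 CPM (2.10 ± 0.30, adjusted p = 0.00321). cpr-6, a cathepsin B-like protease, was at 2243, 2723 and 1827 CPM against 779.7, 593 and 826 CPM (1.63 ± 0.24, adjusted p = 0.00431). cpz-1, a cathepsin Z-like protease, rose by 1.22 ± 0.20 (adjusted p = 0.00921) and nuc-1, a DNase II that degrades DNA of dead cells and food, by 1.28 ± 0.22 (0.0107). Another member, cpr-5, went the other way without passing, at 212, 228 and 107 CPM against 451, 364 and 548 CPM (adjusted p = 0.0525). cpr-4 was at 466, 592 and 400.2 CPM against 873, 70.9 and 96.2 CPM and rose only without N2 replicate 1 (2.64 ± 0.52, adjusted p = 0.0162). Further called hydrolases, singled out after their values were seen, were the hexosaminidase hex-1 (1.81 ± 0.21, adjusted p = 0.00117), the acid sphingomyelinase asm-3 (3.44 ± 0.47, adjusted p = 0.00258), the glucocerebrosidase gene gba-2 (4.08 ± 0.69, adjusted p = 0.00963) and the serine carboxypeptidase ctsa-1.1 (1.24 ± 0.16, adjusted p = 0.00168).

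Yolk protein mRNA was higher in every ust223 library than in every N2 library. The 6 vitellogenin genes took 4.72%, 5.15% and 6.87% of all counts in ust223 and 3.44%, 1.18% and 1.61% in N2. vit-3 was at 6426, 8266 and 9162 CPM against 4050, 1806 and 3064 CPM (1.42 ± 0.30, adjusted p = 0.0332), and vit-4 at 5467, 6604 and 6734 CPM against 2559, 1387 and 2527 CPM (1.54 ± 0.30, adjusted p = 0.0232). vit-3, vit-4 and vit-5 are near-identical copies, and how reads were divided between them is uncertain. vit-5 was at 10740, 12246 and 17150 CPM against 7733, 1851 and 2971 CPM (adjusted p = 0.101). N2 replicate 1 was the highest N2 library in vit-2, vit-3, vit-4, vit-5 and vit-6 and the lowest in vit-1. Without it 5 of 6 rose, with vit-5 at 2.55 ± 0.40 (adjusted p = 0.00559), vit-2 at 1.94 ± 0.38 (0.0159) and vit-6 at 1.86 ± 0.34 (0.011); vit-1 had 0.86 ± 0.32 (0.169). The yolk receptor gene rme-2 was at 772, 719 and 939 CPM against 604, 744 and 1028 CPM and overlapped.

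Some pathogen defence genes rose, and most did not pass. Of 34 tested innate immunity genes, 6 rose (17.6%), none fell, and the median was 0.84. sysm-1, which encodes a ShK-domain protein, was at 133, 141 and 116 CPM against 15.0, 16.7 and 13.7 CPM (3.10 ± 0.42, adjusted p = 0.00247). thn-2, a thaumatin-like gene, was at 292, 384 and 227 CPM against 79.5, 15.2 and 20.4 CPM (2.97 ± 0.62, adjusted p = 0.0305). The infection response gene irg-4 (1.67 ± 0.33, adjusted p = 0.0223) and the lysozyme gene lys-8 (1.11 ± 0.22, adjusted p = 0.0232) also rose, as did fipr-22 and abf-2. Without N2 replicate 1, 10 of the 34 rose and 1, irg-8, fell. In the 12-library fit 17 of 35 rose (48.6%, against 7.84% of all genes) and 1 fell. irg-8 was at 183, 179 and 113 CPM against 61.2, 483 and 512 CPM. The 45 tested antimicrobial peptide genes were split, with 2 higher and 2 lower (median 0.33), and without N2 replicate 1 it was 5 and 4. fipr-22 (3.50 ± 0.54, adjusted p = 0.00561) and abf-2 (3.36 ± 0.75, adjusted p = 0.0447) rose. fipr-2 was at 30.2, 35.8 and 19.6 CPM in ust223 against 76.3, 95.5 and 69.4 CPM in N2 (-1.49 ± 0.22, adjusted p = 0.00431), and passed whichever library was left out. fipr-7 was at 1.20, 1.47 and 0.565 CPM against 3.83, 12.6 and 12.3 CPM (-3.15 ± 0.63, adjusted p = 0.0253). Of 167 C-type lectins 9 rose (5.39%) and 1 fell; without N2 replicate 1, 11 rose and 1 fell. clec-218 was at 20.7, 25.3 and 20.6 CPM against 4.85, 5.22 and 3.63 CPM (2.28 ± 0.30, adjusted p = 0.00233), whereas clec-88 was at 304, 290.1 and 349.6 CPM against 432, 519 and 486 CPM and fell by 0.61 on the log2 scale (standard error 0.14, adjusted p = 0.0475).

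Among cytochrome P450, UDP-glucuronosyltransferase and glutathione S-transferase genes the calls lay mostly in the P450 family. Of 30 short-chain dehydrogenases, the family of dhs-26, 3 rose (10.0%), and without N2 replicate 1, 5 rose. Of 67 cytochrome P450 genes, which oxidise fatty acids, steroids and foreign compounds, 6 rose (8.96%), none fell, and the median was 0.61; without N2 replicate 1 it was 11 and 0.81. cyp-25A1 was at 43.7, 46.4 and 43.4 CPM against 2.78, 6.72 and 7.31 CPM (2.99 ± 0.34, adjusted p = 0.00102). cyp-35A2 was at 144, 149 and 116 CPM against 34.8, 51.2 and 44.4 CPM (1.65 ± 0.23, adjusted p = 0.00301), and its neighbour cyp-35A1 rose by 3.05 ± 0.60 (0.0225). Of 63 UDP-glucuronosyltransferases, which attach sugars to small molecules, 3 rose (4.76%), with ugt-66 at 2.63 ± 0.40 (adjusted p = 0.00483). None of 40 glutathione S-transferases was called with all libraries (median 0.03), and without N2 replicate 1 gst-26 fell by 0.97 (standard error 0.24, adjusted p = 0.0472). Of 38 genes of oxidative stress and detoxification 3 rose in both fits (7.89%; median 0.27), and all 3 were P450 genes, cyp-35A1, cyp-35A2 and cyp-35B1 (2.65 ± 0.39, adjusted p = 0.00431). Of 53 transthyretin-like genes 5 rose (9.43%), and without N2 replicate 1, 7; ttr-45 was at 132, 147 and 129 CPM against 59.2, 62.2 and 62.0 CPM (1.15 ± 0.18, adjusted p = 0.00692). mtl-2, a metallothionein that binds metal ions, rose by 1.81 ± 0.32 (adjusted p = 0.0136).

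DAF-16 is the FOXO factor of insulin signalling, and class I and class II are its positively and negatively responding genes. Of 21 class I genes 1 rose, fat-5 (4.76%; median 0.66). Without N2 replicate 1, 7 rose (33.3%, against 2.28% of all genes in that fit), and the median was 1.07. In the 12-library fit 13 of the 21 rose (61.9%, against 7.84% of all genes) and none fell. mtl-1, the other metallothionein, was at 172, 166 and 126 CPM in ust223 and at 71.4, 1.93 and 3.14 CPM in N2 (2.60 ± 1.14, adjusted p = 0.454; 6.04 ± 1.04, adjusted p = 0.00827 without N2 replicate 1). ftn-1, a ferritin, was at 25.0, 22.3 and 25.6 CPM against 2.82, 0 and 0.108 CPM, and lea-1 at 1326, 1319 and 1509 CPM against 801, 155 and 193 CPM. dod-3, at 37.7, 33.6 and 30.9 CPM against 51.2, 0.858 and 2.27 CPM, and nnt-1, at 16.4, 15.6 and 20.3 CPM against 27.8, 1.29 and 1.52 CPM, had N2 replicate 1 above the ust223 range. Of 20 class II genes 5 rose with all libraries (25.0%; median 1.06). Of the 20, 6 rose without N2 replicate 1 (median 1.34) and 1 fell, dod-17, which was at 7.99, 7.01 and 4.65 CPM against 5.71, 21.5 and 23.8 CPM (-1.69 ± 0.37, adjusted p = 0.0287). pud-3 was at 691, 910.4 and 468 CPM against 36.5, 81.3 and 96.9 CPM (3.27 ± 0.41, adjusted p = 0.00167) and pud-4 at 204, 360.3 and 214 CPM against 11.6, 20.9 and 18.7 CPM (3.93 ± 0.37, adjusted p = 0.000233). They overlap on opposite strands, and without strand in the counting their reads cannot be told apart. pud-2.2, also called higher with all libraries, lies 985 bases from pud-3. The class II list shares members with lists above. nuc-1 is also counted with the hydrolases. vit-2 and vit-5, called without N2 replicate 1, are also counted with the yolk genes. The class II counts are thus not separate from those lists. dod-23 was at 229, 312 and 404 CPM against 88.0, 82.8 and 119 CPM (1.71 ± 0.24, adjusted p = 0.00301). daf-16 itself was at 93.6, 101 and 110.0 CPM against 138, 129 and 120.4 CPM (-0.35 ± 0.14, adjusted p = 0.399), and pqm-1, a factor linked to class II genes, was at 29.6, 33.5 and 43.3 CPM against 30.5, 13.2 and 12.6 CPM (0.92 ± 0.41, adjusted p = 0.473; 1.54 ± 0.41, adjusted p = 0.0643 without N2 replicate 1).

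**Figure D4:**
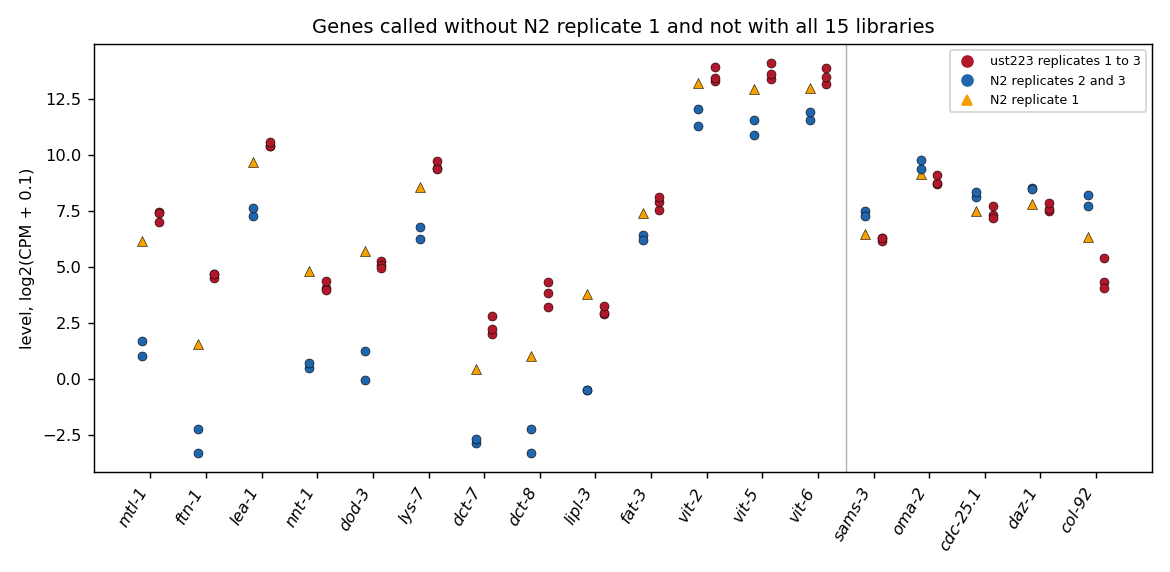
Level in each library, log2(CPM + 0.1), of genes that passed the test without N2 replicate 1 and not with all 15 libraries; genes right of the line were lower in ust223. In the left group N2 replicate 1 (triangles) lies near or above the ust223 libraries in genes such as dod-3 and lipl-3, and the other N2 libraries lie far below.

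Leaving out N2 replicate 1 brought in 217 higher and 102 lower genes. With all 15 libraries 214 of the 217 and all 102 had the same sign, and their median log2 fold changes were 0.96 and -0.87. Both fits use the ust223 libraries and N2 replicates 2 and 3, so the shared sign adds no support. In 77 of the 217 and 54 of the 102, N2 replicate 1 lay within or beyond the range of the ust223 libraries. Among the largest of the added rises, the insulin-like gene ins-19 was at 4.17, 10.2 and 6.71 CPM in ust223 and at 1.21, 0 and 0 CPM in N2, and dlhd-1, with a dienelactone hydrolase domain, at 4.98, 5.20 and 6.68 CPM against 3.05, 0.107 and 0.108 CPM. F43C11.3 went down, at 0.154, 0.444 and 0.233 CPM against 1.60, 7.05 and 5.20 CPM. The 15 genes lost were 9 higher and 6 lower ones, among them pud-2.2 (adjusted p = 0.0508) and cpg-8 (0.0611).

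Genes that fell were fewer. C33B4.4 was at 5.02, 4.00 and 3.79 CPM in ust223 and at 22.3, 29.2 and 33.7 CPM in N2 (-2.73 ± 0.26, adjusted p = 0.000241). F57A10.4 was at 2.28, 1.85 and 4.75 CPM against 17.3, 27.7 and 26.2 CPM (-3.00 ± 0.38, adjusted p = 0.00179). dyf-3, which encodes a component of intraflagellar transport in sensory cilia, was at 1.81, 1.44 and 1.69 CPM against 9.70, 10.4 and 8.60 CPM (-2.53 ± 0.31, adjusted p = 0.00144). These 3 genes passed whichever library was left out. In ok302 the mean of dyf-3 was 2.44 CPM, in ust222 3.83 CPM and in ust221 7.87 CPM. Of 54 genes of sensory cilium transport 2 fell, dyf-3 and dyf-17 (-1.68 ± 0.35, adjusted p = 0.0304), and none rose. Of all tested genes 0.227% fell. The median of the cilium list was -0.15 with all libraries and 0.72 without N2 replicate 1. In the latter fit 47 of the 54 members lay above 0, as did 9108 of all 17599 tested genes.

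The perlecan gene unc-52, a component of muscle basement membrane, was at 106, 115 and 91.1 CPM against 256, 199.7 and 195 CPM (-1.06 ± 0.19, adjusted p = 0.0136). It was the called member of 25 muscle genes, whose median was -0.55 with all libraries and -0.26 without N2 replicate 1. The muscle list summed to 16011 CPM in N2 replicate 1 and to 9913 and 12768 CPM in the other N2 libraries, against 9017, 9629 and 7698 CPM in ust223. The collagen gene col-12 was at 9.84, 19.2 and 5.28 CPM against 54.3, 72.8 and 96.3 CPM (-2.70 ± 0.56, adjusted p = 0.0304). Of 148 collagen genes 2 rose (1.35%, near the 1.13% of all genes) and 2 fell, col-12 and col-153 (-1.49 ± 0.34, adjusted p = 0.0478). The risers were col-43 (4.17 ± 0.71, adjusted p = 0.0107) and col-158 (4.08 ± 0.64, adjusted p = 0.00576). Without N2 replicate 1, 4 collagen genes rose and 5 fell. The median of the 8 adult cuticle collagens was -1.82 with none called, and summed to 330.2, 585 and 477 CPM in ust223 and to 157, 1961 and 2762 CPM in N2. The histone H1-like gene hil-5 fell by 1.06 (standard error 0.24, adjusted p = 0.0475), and the aquaporin gene aqp-7 by 1.25 (standard error 0.24, adjusted p = 0.0209).

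Few germline genes or reported PUF-8 target mRNAs passed the test. None of 11 reported PUF-8 target mRNAs passed with all libraries or without N2 replicate 1, with medians of -0.17 and -0.27. In the 12-library fit 1 of the 11 rose, pqm-1 (1.54 ± 0.24, adjusted p = 0.00137). Among these, the Notch receptor gene glp-1 was at 105, 84.9 and 141 CPM against 78.6, 148 and 110.4 CPM, and lip-1, a MAP kinase phosphatase gene, at 48.5, 44.7 and 55.3 CPM against 61.0, 69.4 and 65.0 CPM. The lip-1 libraries did not overlap and its log2 fold change was -0.40 ± 0.17 (adjusted p = 0.45). None of 36 germ granule and meiosis genes, 39 sperm genes or 30 major sperm proteins was called with all libraries or without N2 replicate 1. In the 12-library fit 1, 3 and 2 of these lists' members were lower, and 1 sperm gene was higher. Of 66 small sperm protein genes 1 fell with all libraries, nspb-6 (-2.03 ± 0.41, adjusted p = 0.026), and 4 fell without N2 replicate 1. Of 32 oocyte and eggshell genes 1 was called, perm-4, needed for the permeability barrier of the eggshell, at 1729, 1678 and 1505 CPM against 917, 526 and 744 CPM (1.17 ± 0.26, adjusted p = 0.0455). The oocyte list summed to 17853, 16990 and 20165 CPM in ust223 and to 15604, 17003 and 21556 CPM in N2. Without N2 replicate 1 the oocyte maturation gene oma-2 (-0.66 ± 0.15, adjusted p = 0.0395), the cell cycle phosphatase gene cdc-25.1 (-0.72 ± 0.17, adjusted p = 0.0401) and the RNA-binding gene daz-1 (-0.74 ± 0.15, adjusted p = 0.0192) fell. Sperm genes averaged 1.36, 1.62 and 0.99 log2 CPM in ust223, below the 1.98 and 2.04 of N2 replicates 2 and 3 and above the -1.58 of N2 replicate 1.

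Lists without called members, or with few, were read by their medians and summed levels. None of 78 cytosolic ribosomal proteins passed, with a median of -0.45. They summed to 117841, 139781 and 97338 CPM in ust223 and to 167455, 125122 and 184753 CPM in N2, and the groups overlapped. None of 36 molting genes passed with all libraries or without N2 replicate 1, yet their median moved from -0.17 to 2.12 without N2 replicate 1, and that of 15 hypodermis markers from -0.28 to 1.56. In the 12-library fit 25 of the 36 molting genes (69.4%, against 7.84% of all genes) and 6 of the 15 hypodermis markers were higher, and 1 molting gene was lower. None of 29 heat shock and ER chaperone genes passed (median -0.11). Of 25 mitochondrial dynamics and stress genes 1 rose with all libraries (2 without N2 replicate 1), atfs-1, the factor of the mitochondrial unfolded protein response (0.65 ± 0.14, adjusted p = 0.0311). The 13 male soma markers summed to 39.2, 54.4 and 39.6 CPM in ust223 and to 15.1, 22.5 and 25.3 CPM in N2. The 12 tested had a median of 1.42, and none was called. The part of males, molting animals or tissue share in the gene results was not tested. The 17 intestine markers, of which ges-1 (1.10 ± 0.24, adjusted p = 0.0365) and mtl-2 rose, had a median of -0.39 (3 rose and 1 fell without N2 replicate 1) and summed to 4958, 6061 and 3784 CPM against 8705, 4328 and 6158 CPM; elt-2, the intestinal GATA factor, was at 10.5, 13.1 and 7.74 CPM against 12.7, 13.2 and 12.6 CPM.

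**Figure D5:**
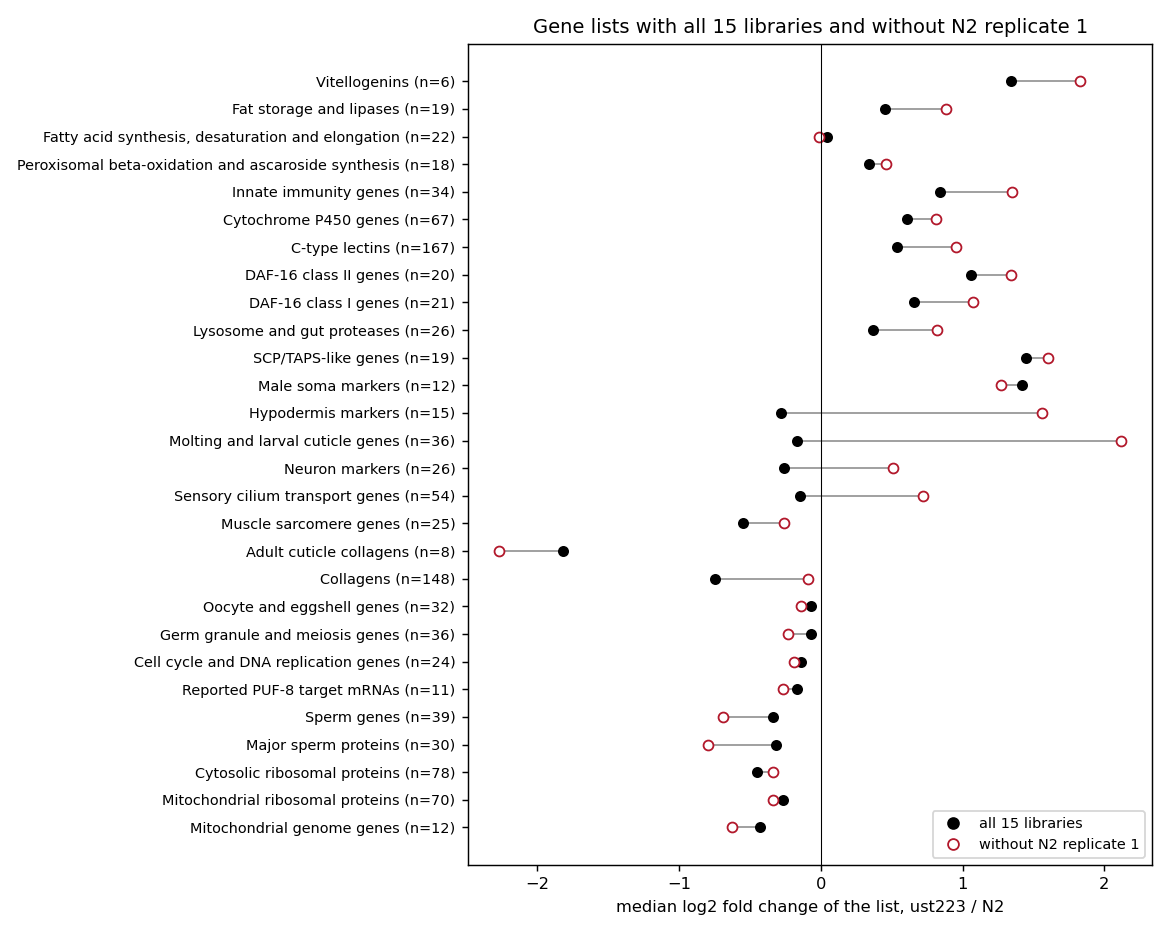
Median log2 fold change, ust223 over N2, of the tested members of selected gene lists, with all 15 libraries (filled) and without N2 replicate 1 (open). Vitellogenin, immune, P450 and lipase lists lie above 0 in both; molting, hypodermis, neuron and cilium lists cross 0 between them.

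Some genes with the smallest p-values belonged to none of the fixed lists and were singled out after their values were seen. W01A11.1, with an epoxide hydrolase domain, was at 292, 378 and 301 CPM against 59.3, 59.3 and 49.5 CPM (2.53 ± 0.17, adjusted p = 5.8e-06). tbh-1, the tyramine beta-hydroxylase that makes octopamine, was at 255, 251 and 258 CPM against 58.7, 68.4 and 85.0 CPM (1.85 ± 0.20, adjusted p = 0.000907). catp-3, a P-type ATPase gene, was at 48.5, 55.1 and 52.6 CPM against 8.57, 6.62 and 5.84 CPM (2.89 ± 0.34, adjusted p = 0.00128). cpi-1, a cystatin that inhibits cysteine proteases, rose by 2.26 ± 0.29 (adjusted p = 0.00203). fpn-1.1, a ferroportin that exports iron, rose by 1.45 ± 0.23 (adjusted p = 0.00705), and rict-1, the Rictor subunit of the TORC2 kinase, was at 97.6, 83.4 and 120.2 CPM against 49.5, 58.4 and 52.8 CPM (0.91 ± 0.16, adjusted p = 0.0136). N2 replicate 1 lay close to the other N2 libraries in W01A11.1, hex-1, ctsa-1.1 and catp-3, and without it their log2 fold changes were 2.67, 1.95, 1.34 and 3.15.

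The named genes differed in how far 1 library decided their call. Of the 87 genes named here or in the closing observations that passed with all 15 libraries, 41 passed whichever library was left out. These 41 include fat-2, fat-5, dgat-2, lipl-5, far-3, asp-4, cpr-6, pud-3, pud-4, sysm-1, cyp-25A1, T22B7.7 and dyf-3. Another 18 passed when N2 replicate 1 was left out and in none of the other such fits: vit-3, vit-4, fat-4, acs-22, acox-3, far-8, abf-2, fipr-7, col-153, thn-2, perm-4, ges-1, clec-88, hil-5, his-6, nlp-59, scl-20 and F56D6.9. D1086.9 and cpg-8 passed in none of the 6 such fits, and pud-2.2 passed only without N2 replicate 2. The other 25 passed in 2 to 5 of these fits, and with the 6 libraries alone 21 of the 87 passed. col-43 and gba-2 did not pass without N2 replicate 2, and acox-1.2 without ust223 replicate 1 or 2. The calls of fat-1 and fat-6 rested on each library except N2 replicate 1 and ust223 replicate 1.

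Called genes were spread over all nuclear chromosomes. The share of tested genes that rose was 1.68% on chromosome V, 1.45% on X, 1.30% on IV, 0.995% on II, 0.666% on I and 0.512% on III. Of tested protein-coding genes 182 of 16312 rose and 36 fell, and of 602 pseudogenes 6 rose and 1 fell.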

How the data were processed

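RNA of whole young adults was measured by poly-A RNA-seq. The values are raw counts, deposited by the authors as a single table of genes by 15 libraries. Per the submitters' processing notes HISAT2 2.0.5 was used. For the counter, its strand setting, the build and the gene models, nothing is given in the sources used here. Counts of overlapping genes and close copies are therefore uncertain. Symbols matched 44017 of 47111 identifiers.

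The test was edgeR 4.0.16 (R 4.3.3) with filterByExpr on genotype, TMM scaling, 1 quasi-likelihood model over all 15 libraries and the contrast ust223 minus N2. Genes were called where the Benjamini-Hochberg adjusted p was under 0.05. Standard errors were obtained as |log2 fold change| over the root of the F statistic. CPM use TMM-scaled library sizes. The procedure was tested on simulated counts with known changes in ust223. At true log2 fold changes of 1, 2 and 3 the 15-library fit called 7.69%, 34.9% and 48.9% of the changed genes. At -1 and -2 it called 11.8% and 32.4%. With N2 replicate 1 dropped from the same simulated counts, the rises were called in 0%, 27.9% and 40.4%. These counts kept the spread of all 15 libraries, a common biological coefficient of variation of 0.477. In the real fit without N2 replicate 1 it was 0.38, so the simulated shares do not describe that fit. A list with no called member may therefore still hold changes of these sizes. A fold against 0 reads uses a floor of 3 counts over the group, which covers counting error only.

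The comparison, the 62 gene lists and the tests were chosen with earlier results of these data known. The name patterns of 4 family lists (transporters, Argonautes, chemoreceptors, antimicrobial peptides) were corrected after their values were seen, and 10 listed symbols matched no identifier. Named genes were puf-8, daf-16, the vitellogenins and reported PUF-8 targets, the 10 largest called changes per direction with a mean of at least 50 counts, the 8 most abundant called genes per direction, up to 4 called members per list, and the 8 largest changes per direction called without N2 replicate 1. A part of the rule on binding motifs was not run. From these the text names the ones its results turn on, and other genes are given as list members or as singled out later. Alternatives were RLE scaling, library totals, DESeq2 1.42.0, other filters on low counts, other sets of libraries, each replicate left out, and the replicate number as a block.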

Additional observations from a re-analysis of the deposited data

How the results depend on the processing

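The numbers of called, higher and lower genes were 233, 194 and 39. They moved to 360, 301 and 59 with library totals, to 661, 457 and 204 with DESeq2, to 32, 31 and 1 with only the 6 libraries compared, to 2389, 1673 and 716 with those libraries less N2 replicate 1, and to 2048, 1439 and 609 in the 12 libraries that also lack ust222 replicates 1 and 3. With RLE scaling 69 genes were lower. Leaving out 1 library at a time gave 85 to 537 called, 77 to 402 higher and 6 to 135 lower genes. The highest count, 537, came without N2 replicate 1. When another N2 library was dropped the count was 124 (replicate 2) or 112 (replicate 3). When a ust223 library was dropped it was 94, 85 or 112, in the order of their numbers. The cause of these moves was not tested. None of the called genes was called in the opposite direction under any of these alternatives. The correlations of same-numbered N2 and ust223 deviations from their group means were 0.04, 0.06 and -0.08. N2 replicate 1, which stood apart, weighs heavily on the N2 deviations, so these values cannot exclude pairing by replicate number. With the replicate number as a block 202 genes were called, 169 higher and 33 lower, and 185 of the 233 were kept.

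Of the genes named, 3 that passed no test changed sign. For fat-7 the log2 fold change was -0.22 with 5 libraries, -0.20 with 12 and -0.02 with the block, and -0.58 to 0.39 on leaving out 1 library. For glp-1 it was 0.07 with library totals and 0.03 with no filter, and -0.25 to 0.23 on leaving out 1 library. For rme-2 it was -0.04 with 5 and with 12 libraries, and -0.09 to 0.26 on leaving out 1 library. Genes under about 1 CPM rest on few reads, and no sequence or strand was used.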

Other observations

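Other gene families had few called members. The shares that rose among neuropeptide, chemoreceptor and zinc metalloprotease genes were 0.763%, 0.840% and 1.72%, near the 1.13% of all genes. Of 131 neuropeptide and insulin-like genes 1 rose, nlp-59, at a mean of 25.7 ± 3.07 CPM in ust223 against 6.49 ± 3.92 CPM in N2 (SD, n = 3 libraries each; log2 fold change 1.98 ± 0.38, edgeR, adjusted p = 0.0204). Of 132 tested without N2 replicate 1, 3 rose. Of 119 chemoreceptor genes with enough reads 1 rose, sra-14, at 6.10, 5.43 and 6.61 CPM against 1.02, 0.930 and 1.89 CPM (2.24 ± 0.41, adjusted p = 0.0145), and without N2 replicate 1, 2 of 156 rose. Of 58 zinc metalloproteases 1 rose, nas-11 (1.11 ± 0.22, adjusted p = 0.0223), and without N2 replicate 1 adt-3 fell as well (-2.38 ± 0.39, adjusted p = 0.00664). None of 203 nuclear hormone receptors, 323 F-box, MATH and BTB genes, 19 Argonautes or 33 proteasome subunits was called with all libraries. In the fit without N2 replicate 1, 2 nuclear hormone receptors, nhr-11 (1.64 ± 0.38, adjusted p = 0.0351) and nhr-132 (1.17 ± 0.26, adjusted p = 0.031), and 4 of 335 F-box, MATH and BTB genes rose, with none lower. Of 38 histone genes 2 fell, his-67 (-1.86 ± 0.36, adjusted p = 0.0204) and his-6 (-2.55 ± 0.57, adjusted p = 0.0446), whose reads may be shared with other histone copies. Among noncoding genes, linc-29 was at 12.4, 11.7 and 9.27 CPM against 2.23, 1.07 and 2.06 CPM (2.64 ± 0.32, adjusted p = 0.00144); it was chosen after its values were seen.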
